A study of Mus musculus with 6 samples.

Results

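The 6 genes described here encode the E proteins Tcf3, Tcf4 and Tcf12 and the Id proteins Id1, Id2 and Id3 of the mouse. They were chosen by name and not by a rule on measured values, although earlier results of these data were known. They are 6 of the 47729 genes with a row in the count tables. All 6 passed the filter on low counts, as did 18174 genes in all. Expression was measured by RNA sequencing in FACS-sorted thymus DN1a/b cells, the most immature thymic progenitors, from C57BL/6 mice. The Control group kept RBPJ, the DNA-binding factor through which Notch receptors act on their target genes. The RBPJ uninduced group lacked RBPJ. The RBPJ 6 days induced group came from otherwise RBPJ-deficient mice in which RBPJ expression was switched on for 6 days with doxycycline, injected from a 2 mg/ml solution and then given in drinking water at 1 mg/ml. Each group had 2 libraries, named here by group and replicate number. The comparisons ask how the E and Id genes stand when progenitors cannot respond to Notch signals, and after that response is restored.

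The sources used here do not give the alleles, the promoter or Cre line behind the deletion, the age of the mice, or whether the Control and uninduced mice received doxycycline, so the return of RBPJ and exposure to doxycycline cannot be told apart. Nothing in the labels ties the 2 libraries of a group to different mice. The p-values then measure only the spread between these libraries, which may be technical. The RNA is from a bulk sort, in which fewer cells of a type and less RNA per cell cannot be told apart.

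E proteins are class I basic helix-loop-helix transcription factors that bind a short DNA site, the E box, as dimers with themselves or with a tissue-restricted class II partner. Id proteins carry the helix-loop-helix but no basic DNA-binding region, so a dimer of an Id and an E protein does not bind DNA, and the balance of both families sets how much E protein activity a cell has. E2A, the product of Tcf3, and HEB, the product of Tcf12, are required for early T cell development, and E2A also for B cell development. E2-2, the product of Tcf4, is the defining factor of plasmacytoid dendritic cells, and Id2 is required for innate lymphoid and natural killer cells. Tcf3 and Tcf4 are not members of the Tcf7 and Lef1 family, despite the shared prefix. Splice forms of one gene, such as those of E2A, are summed in these counts.

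Promoter windows of 300 bases, from 250 before to 50 after a transcription start, were taken from RefSeq (GRCm38.p6). The windows searched cover 4 of the 6 genes, in 6 windows, and no window of Tcf4 or Id1 was searched. That is a limit of the search and does not show that RefSeq lacks promoters of these genes. Whether Tcf4 or Id1 promoters hold the letters searched for was not tested. The windows are shown because RBPJ was the factor removed and returned and because E boxes are the sites that E proteins bind. The first window of Tcf3 lies at chr10:80433586-80433885, the first of Tcf12 at chr9:72111770-72112069 and that of Id2 at chr12:25096043-25096342, all on the minus strand and read here 5′ to 3′ along the gene. Capitals mark the E box letters CANNTG.
Tcf3: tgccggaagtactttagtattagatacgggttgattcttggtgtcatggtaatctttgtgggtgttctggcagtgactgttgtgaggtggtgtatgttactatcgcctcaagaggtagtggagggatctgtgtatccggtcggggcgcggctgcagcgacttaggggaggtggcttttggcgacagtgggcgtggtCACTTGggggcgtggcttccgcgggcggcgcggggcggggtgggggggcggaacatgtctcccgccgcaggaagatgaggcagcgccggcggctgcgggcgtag
Tcf12: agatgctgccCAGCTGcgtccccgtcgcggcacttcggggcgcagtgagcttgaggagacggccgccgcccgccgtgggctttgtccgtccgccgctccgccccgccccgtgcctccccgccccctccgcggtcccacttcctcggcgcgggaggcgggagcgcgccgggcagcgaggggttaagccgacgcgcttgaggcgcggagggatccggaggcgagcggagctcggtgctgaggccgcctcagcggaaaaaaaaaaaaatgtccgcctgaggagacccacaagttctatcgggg
Id2: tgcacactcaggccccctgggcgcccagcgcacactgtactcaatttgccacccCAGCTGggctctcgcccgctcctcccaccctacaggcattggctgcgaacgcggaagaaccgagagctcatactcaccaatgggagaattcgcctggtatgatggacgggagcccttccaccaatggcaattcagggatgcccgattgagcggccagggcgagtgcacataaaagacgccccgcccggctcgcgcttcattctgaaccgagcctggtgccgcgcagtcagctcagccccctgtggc
Both strands were searched. The Tcf12 and Id2 windows each held the E box CAGCTG, which 16.3% of 32851 RefSeq promoters of the same length hold, and the Tcf3 window held the E box CACTTG. The letters CAGCTG and CACCTG are forms of CANNTG, which was in 72.3% of all promoters, and CACCTG, in 20.2% of them, was in none of the 6 windows. The other Tcf12 windows held 2 and 1 E boxes, and the Id3 window held none. The RBPJ core letters TGGGAA were in none of the 6 windows and in 25.6% of all promoters, which says only that these letters are not in these windows.

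The 6 genes differ in the exonic length over which reads can be counted (mm10, GENCODE M21). Tcf3, ENSMUSG00000020167, spans bases 80409514 to 80433647 of chromosome 10 with 4039 exonic bases. Tcf12, ENSMUSG00000032228, spans 71842688 to 72111871 of chromosome 9 with 15529, and Tcf4, ENSMUSG00000053477, spans 69343356 to 69689079 of chromosome 18 with 27382. The Id genes are short. Id1, ENSMUSG00000042745, lies at 152736251 to 152737410 of chromosome 2 with 1160 exonic bases, Id2, ENSMUSG00000020644, at 25093799 to 25097140 of chromosome 12 with 2438, and Id3, ENSMUSG00000007872, at 136143497 to 136145755 of chromosome 4 with 1791. No other annotated gene shares an exonic base with any of the 6. Id2 has 1 close copy, the pseudogene Gm6175, with 91.8% identity over 380 bases, which held 2 reads in induced 1 and 0 in the other libraries.

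Libraries held 5098927 to 12932928 counts, with Control 2 and uninduced 1 the shallowest. Rbpj, counted over the whole gene, was at 74.1 and 72.9 CPM (counts scaled to library size) in Control, 28.2 and 30.0 in uninduced and 198.2 and 202.9 in induced cells, the order the labels give, although which exons were deleted is not given. Its log2 fold change, with edgeR's quasi-likelihood test and Benjamini-Hochberg adjustment, was −1.34 ± 0.186 (SE, adjusted p = 0.00495) for uninduced against Control and 2.78 ± 0.192 (adjusted p = 0.000507) for induced against uninduced. Induced cells held more Rbpj than Control, by 1.45 ± 0.182 (adjusted p = 0.0175). Kit, the receptor that marks DN1a/b cells, was at 371.7 CPM or above in every library. Uninduced 2 stood apart: the summed level of 10 B-lineage genes was 849 CPM there and 20.5 to 66.3 CPM in the other 5 libraries, and mitochondrial ribosomal RNA took 16.5% of its counts against 9.26 to 12.4%. Control 2 stood apart in another way. Bcl11b, a factor of T cell commitment, was at 131.4 CPM there and 5.10 in Control 1, Cd8a, a coreceptor of later thymocytes, at 80.0 against 3.20, and Rag1, a recombinase subunit, at 256.5 against 15.7. Rag1 was not high in Control 2 alone, since it was at 126.4 CPM in uninduced 2. It also detected 30343 genes, against 18560 to 24025 in the others.

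Of the 6 genes, 0 passed an adjusted p of 0.05 in any of the 3 comparisons, with edgeR's quasi-likelihood test adjusted over all 18174 genes. Of all genes, 2.49% were called higher and 2.93% lower in uninduced than in Control cells, 5.42% in either direction, so a count of 0 among 6 is near this background. In induced against uninduced cells 1.55% were called higher and 0.413% lower, 1.96% in all. In induced against Control cells 0.187% were called higher and 0% lower, 0.187% in all. At an unadjusted p under 0.05 the counts of the 6 were 0, 1 and 0, the 1 being Tcf4, and DESeq2 called 0 in each comparison. The median log2 fold change of the 6 was 0.14, −0.25 and −0.08 in the same order, beside −0.02, −0.03 and −0.02 over all genes tested. The 3 comparisons share libraries, so their values are not independent of each other.

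**Figure D1:**
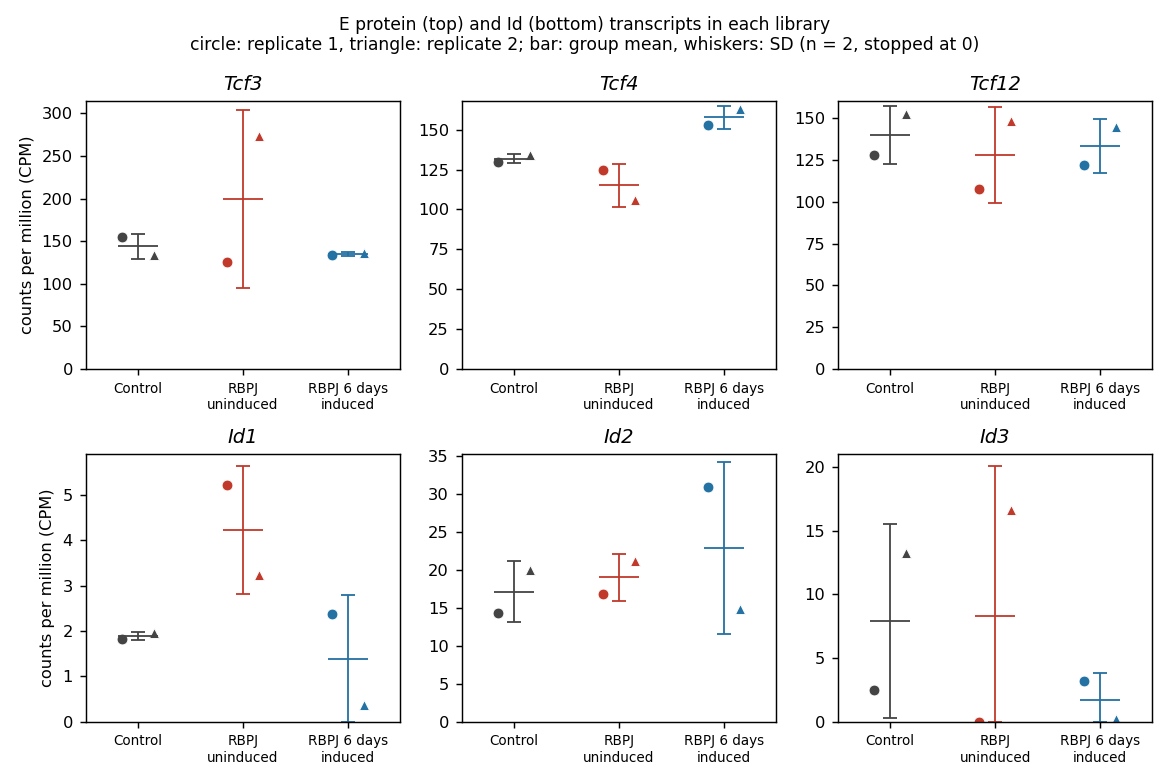
Normalised read count in CPM (linear axes from 0) of each of the 6 genes by group, with a circle for replicate 1, a triangle for replicate 2, a bar for the group mean and whiskers for the SD (n = 2, stopped at 0). Tcf4 is the gene whose 3 groups do not overlap, while Tcf3 is high in uninduced 2 alone and Id3, at 0 counts in uninduced 1, differs widely between libraries of the same group.

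Among the E proteins, Tcf12 showed the least movement. HEB, which it encodes, pairs with E2A in early thymocytes. Tcf12 was at 127.8 and 152.5 CPM in Control, 107.6 and 148.6 in uninduced and 122.2 and 145.1 in induced cells. The groups overlapped throughout, and the highest library was 1.42 times the lowest. Its log2 fold change was −0.13 ± 0.217 for uninduced against Control (95% interval −0.62 to 0.36, adjusted p = 0.855), 0.06 ± 0.217 for induced against uninduced (−0.43 to 0.55, adjusted p = 0.940) and −0.07 ± 0.216 for induced against Control (−0.55 to 0.42, adjusted p = 1). With 619 to 1679 reads per library, these intervals exclude a 2-fold change in either direction in each comparison.

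Tcf4, which encodes E2-2, was at 129.7 and 134.1 CPM in Control, 124.7 and 105.7 in uninduced and 152.7 and 162.9 in induced cells. Both uninduced libraries were below both Control libraries, and both induced libraries were above all others. Uninduced 1 was close to Control. Its exact 95% Poisson interval, for counting error only, was 115.7 to 134.1 CPM. That overlapped those of Control, 123.7 to 136.1 and 124.7 to 144.0 CPM, while that of uninduced 2, 99.0 to 112.6 CPM, did not. Means ± SD (n = 2) were 131.9 ± 3.07, 115.2 ± 13.4 and 157.8 ± 7.20 CPM. Such an order, with no overlap and with Control between the other groups, held for 4.20% of all genes tested. For induced against uninduced cells the log2 difference was 0.46 ± 0.180 (95% interval 0.05 to 0.86), with an unadjusted p of 0.0316 and an adjusted p of 0.258 from the edgeR test, which does not pass. Over the 13 other settings of this comparison it lay between 0.35 and 0.63, with adjusted p from 0.124 to 0.944. The other differences were smaller. Uninduced against Control gave −0.20 ± 0.180 (−0.60 to 0.21, adjusted p = 0.654) and induced against Control 0.26 ± 0.180 (−0.15 to 0.66, adjusted p = 1). All 3 intervals lie inside a 2-fold change. The order of the Tcf4 group means is thus that of Rbpj, at far smaller distances and without a call. For uninduced 1 the distance from Control was within counting error.

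Tcf3, which encodes E2A, was at 154.3 and 133.4 CPM in Control, 125.5 and 273.7 in uninduced and 133.5 and 136.6 in induced cells. One library, uninduced 2, lay far above the rest, and the other 5 spanned 125.5 to 154.3 CPM, which includes its own replicate. Means ± SD (n = 2) were 143.9 ± 14.8, 199.6 ± 104.8 and 135.1 ± 2.17 CPM. The log2 fold change of uninduced against Control was 0.47 ± 0.310 (95% interval −0.22 to 1.17, adjusted p = 0.480), that of induced against uninduced −0.57 ± 0.310 (−1.26 to 0.13, adjusted p = 0.440) and that of induced against Control −0.09 ± 0.309 (−0.79 to 0.60, adjusted p = 1).

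The direction for Tcf3 rested on which uninduced library was kept. Without uninduced 2 its edgeR log2 difference from Control was −0.22 (adjusted p = 0.602), and without uninduced 1 it was 0.87 (adjusted p = 0.0165). For induced against uninduced cells the values were 0.12 without uninduced 2 (adjusted p = 0.793) and −0.96 without uninduced 1 (adjusted p = 0.0118). In these fits the lone library is assumed to vary like those of the other groups. Uninduced 2 is also the library with high B-lineage transcripts. Pax5, the B cell commitment factor, was at 249 CPM there and 0 to 11.6 elsewhere, and Ebf1, its partner in B cell specification, at 162 against 0.265 to 5.39. The part of these transcripts in the Tcf3 value was not tested.

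**Figure D2:**
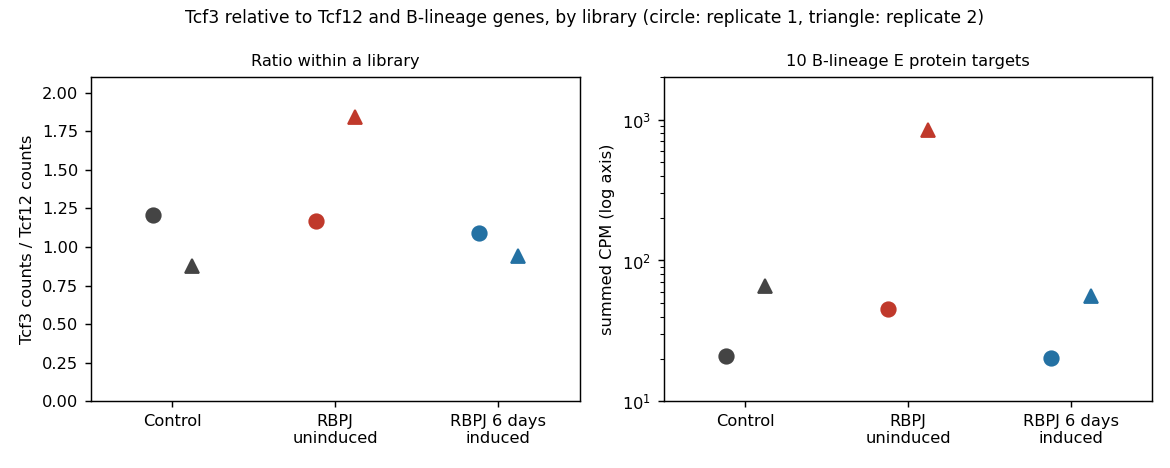
Left, read count of Tcf3 divided by that of Tcf12 in each library, a measure that library scaling cannot move. Right, summed CPM of 10 B-lineage genes (log axis), with a circle for replicate 1 and a triangle for replicate 2, and uninduced 2 is the highest library in both panels, at 1.84 and 849 CPM.

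The excess of Tcf3 in uninduced 2 was not shared by its 2 relatives. The ratio of Tcf3 to Tcf12 reads was 1.21 and 0.875 in Control, 1.17 and 1.84 in uninduced and 1.09 and 0.942 in induced cells. That of Tcf3 to Tcf4 was 1.19 and 0.995, then 1.01 and 2.59, then 0.874 and 0.839. In the other 5 libraries both ratios lay between 0.839 and 1.21. The ratio of Tcf4 to Tcf12 was also lowest in uninduced 2, at 0.711 against 0.879 to 1.25 elsewhere. Ratios of raw reads do not depend on the scaling factor of a library, which was 0.824 in uninduced 2, the lowest of the 6.

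Among the Id genes, Id2 had the most reads. Id2 restrains E proteins in innate lymphoid and dendritic lineages. It was at 14.3 and 20.0 CPM in Control, 16.9 and 21.2 in uninduced and 30.9 and 14.9 in induced cells. Induced 1 was the highest library and induced 2 the lowest but 1, so the groups overlapped in every comparison. The log2 fold changes from edgeR were 0.16 ± 0.410 for uninduced against Control (95% interval −0.76 to 1.08, adjusted p = 0.924), 0.27 ± 0.407 for induced against uninduced (−0.65 to 1.18, adjusted p = 0.827) and 0.42 ± 0.408 for induced against Control (−0.49 to 1.34, adjusted p = 1).

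Id1, a common target of bone morphogenetic protein signals, was near the lower limit of detection. It was at 1.83 and 1.95 CPM in Control, from 24 and 11 reads, at 5.22 and 3.23 in uninduced, from 30 and 29 reads, and at 2.38 and 0.373 in induced cells, from 27 and 4 reads. Both uninduced libraries were above the other 4. Exact 95% Poisson intervals, which cover counting error only, were 3.52 to 7.45 and 2.16 to 4.64 CPM in uninduced cells, so that of uninduced 2 overlapped those of both Control libraries, 1.17 to 2.72 and 0.971 to 3.48 CPM. The log2 fold change was 1.16 ± 1.12 for uninduced against Control (−1.36 to 3.67, adjusted p = 0.683), −1.60 ± 1.13 for induced against uninduced (−4.14 to 0.94, adjusted p = 0.557) and −0.44 ± 1.12 for induced against Control (−2.96 to 2.07, adjusted p = 1). No difference between groups passed the threshold in this test. The induced libraries, of similar depth, had Poisson intervals of 1.57 to 3.47 and 0.102 to 0.954 CPM that did not overlap.

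Id3, an early target of antigen-receptor and Egr signals in thymocytes, differed widely between replicates. It was at 2.51 and 13.3 CPM in Control, from 33 and 75 reads, and at 3.18 and 0.186 in induced cells, from 36 and 2 reads. In uninduced cells it had 0 reads in replicate 1, which allows up to 0.522 CPM at 3 reads, and 149 reads or 16.6 CPM in replicate 2. The lowest and highest of the 6 libraries were thus the 2 replicates of one group, and replicates differed 5.28-fold in Control, where Control 2 was the higher, and 17.1-fold in induced cells. The log2 fold change was 0.11 ± 1.57 for uninduced against Control (−3.41 to 3.64, adjusted p = 0.989), −2.31 ± 1.66 for induced against uninduced (−6.05 to 1.43, adjusted p = 0.569) and −2.19 ± 1.67 for induced against Control (−5.94 to 1.55, adjusted p = 1).

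Leaving out 1 uninduced library also turned Id3. Without uninduced 1, the log2 fold change of induced against uninduced cells was −3.23 (adjusted p = 0.0477, edgeR). Without uninduced 2 the only uninduced library had 0 reads. The mean of Control was then 15.1-fold and that of induced cells 3.23-fold its 3-read limit of 0.522 CPM. These folds hold for the means and not for each library. Control 1 was at 2.51 CPM and Control 2 at 13.3 CPM, and induced 2, at 0.186 CPM, lay below that limit. The edgeR adjusted p without uninduced 2 was 0.0464 against Control and 0.197 against induced cells, on fitted values that depend on the prior count. Id4, the remaining Id gene, had 0 to 3 reads per library and was not tested.

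Across the 6 genes, the groups did not overlap for 2 genes in uninduced against Control, Tcf4 and Id1, beside 44.3% of all genes tested. The same 2 genes did not overlap in induced against uninduced, beside 46.6%, and Tcf4 alone in induced against Control, beside 37.5%. These shares are near or below those of all genes.

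**Figure D3:**
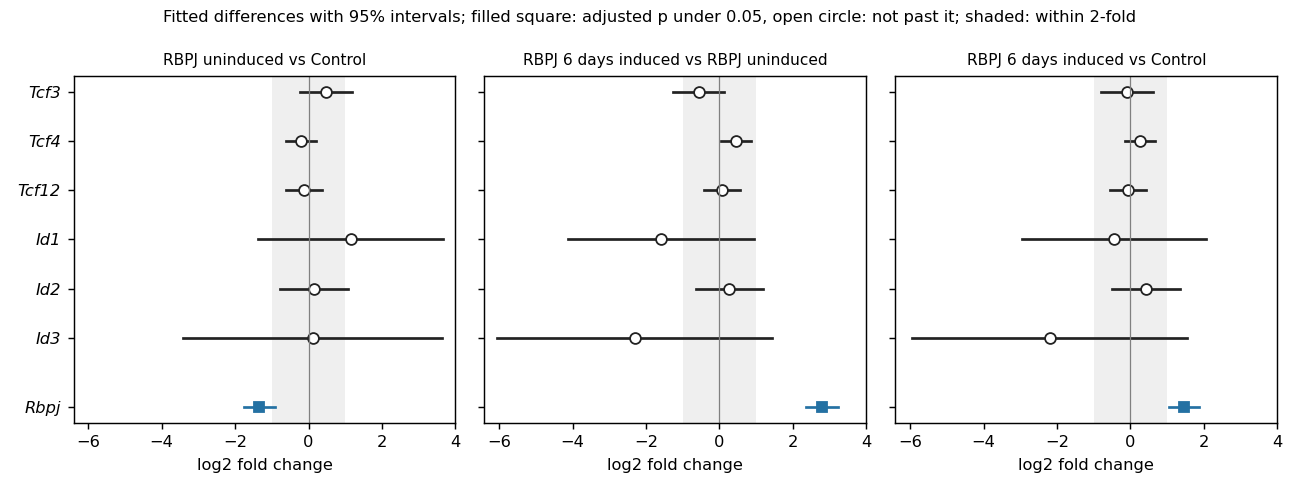
Log2 fold change with its 95% interval from the edgeR fit for the 6 genes and Rbpj in each of the 3 comparisons, with filled squares for an adjusted p under 0.05, open circles otherwise and the range within 2-fold shaded. Of the 6 genes, Tcf4 for induced against uninduced, 0.05 to 0.86, has the one interval that does not include 0, and the intervals of Id1 and Id3 reach well outside the shaded range.

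Compared per kilobase of exonic length, Tcf3 was the most abundant of the 6 in every library, at 38.2 and 33.0 CPM per kb in Control, 31.1 and 67.8 in uninduced and 33.1 and 33.8 in induced cells. It made up 68.9 to 83.5% of the summed level of the 3 E protein genes on this scale. Tcf12 came next among them at 6.93 to 9.82 CPM per kb, and Tcf4 was below it in every library, at 3.86 to 5.95. The order held when the longest annotated transcript replaced the exonic length, with 42.6 to 92.8 CPM per kb for Tcf3, 17.1 to 24.2 for Tcf12 and 12.3 to 19.0 for Tcf4. All ranges are apart for Tcf3, while those of Tcf12 and Tcf4 overlap between libraries by the longest transcript.

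Id2 was the most abundant Id gene in 5 of the 6 libraries, at 5.87 and 8.20 CPM per kb in Control, 6.92 and 8.69 in uninduced and 12.7 and 6.11 in induced cells. In uninduced 2, Id3 was slightly above it, at 9.27 CPM per kb. Elsewhere Id3 was at 0 to 7.41 and Id1 at 0.321 to 4.50 CPM per kb. Id2 took 41.9 to 93.5% of the summed Id level. By the longest transcript, Id3 was above Id2 in Control 2 as well, at 10.4 against 10.2 CPM per kb. The neighbours Id1 and Id3 did not differ beyond their spread, since their order changed from library to library.

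**Figure D4:**
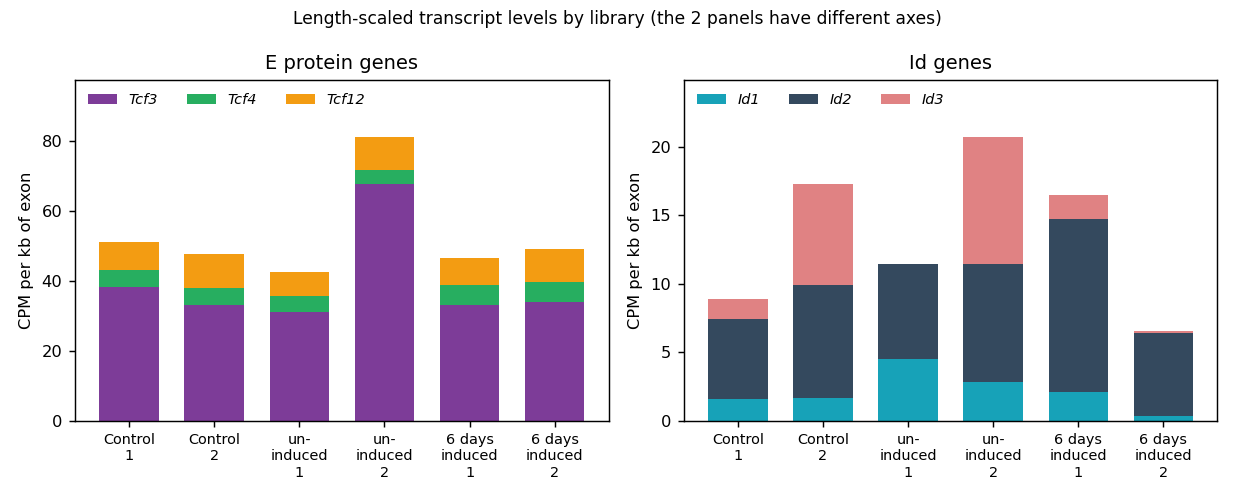
Summed level in CPM per kilobase of exonic length in each library, stacked by gene, for the 3 E protein genes (left) and the 3 Id genes (right), with different axes from 0. Tcf3 is the largest part of every E protein bar, the bar of uninduced 2 is the tallest in both panels at 81.2 and 20.7, and the Id bar of induced 2 is the lowest at 6.54.

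The sum of the 3 E protein genes over the sum of the 3 Id genes, in CPM per kb, was 5.78 and 2.76 in Control, 3.73 and 3.91 in uninduced and 2.82 and 7.51 in induced cells. The lowest and the highest ratio were both far from their replicate, and the uninduced pair lay inside the range of each other group. On the log2 scale the ratio averaged 2.00 ± 0.754 in Control, 1.93 ± 0.0494 in uninduced and 2.20 ± 1.00 in induced cells (SD, n = 2). In uninduced 2 both sums were the highest of their kind, 81.2 CPM per kb for the E proteins and 20.7 for the Id genes. The group means thus differed by less than the spread between the replicates of Control and of induced cells. These are transcript levels, and protein was not measured.

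The partners, regulators and targets of E proteins were examined from lists by role. Class II factors are the tissue-restricted partners in E protein dimers. Of 9 listed, 4 were tested and 1 rose in uninduced cells. Tal1, the partner of E proteins in blood stem cells and in the erythroid and mast lineages, was at 12.5 and 13.6 CPM in Control, 70.9 and 88.3 in uninduced and 36.3 and 47.5 in induced cells. The groups did not overlap, and uninduced cells exceeded Control by 2.61 ± 0.268 on the log2 scale (adjusted p = 0.00133, edgeR). After induction its log2 difference from uninduced was −0.93 ± 0.250 (adjusted p = 0.107) and from Control 1.69 ± 0.261 (adjusted p = 0.0509), and neither passed. The first was called with DESeq2 (adjusted p = 0.0205) and without uninduced 1 (adjusted p = 0.0343). The second was called in 7 of 13 other settings, with adjusted p from 2.15e-05 with DESeq2 to 0.173 without Control 1 over all 13. Lyl1, its close relative, was at 32.9 to 60.6 CPM with overlapping groups. Tal2 had 15 reads or fewer in every library and 0 in both uninduced libraries. The median of the 4 was 0.25 for uninduced against Control, −0.31 for induced against uninduced and −0.15 for induced against Control.

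Summed levels of genes of other lineages were, like Tal1, higher in uninduced cells than in Control. The summed level of 8 erythroid genes was 1.29 to 22.3 CPM in Control, 191 to 565 in uninduced and 86.6 to 150 in induced cells. That of 8 mast cell and basophil genes was 441 to 598, 969 to 1516 and 953 to 974 CPM. For 11 myeloid genes it was 574 to 659, 3341 to 4486 and 845 to 1756 CPM. The mast and basophil sum of uninduced 2 lay between those of the induced libraries, unlike Tal1. Single genes made up much of these sums. Kit, the DN1a/b marker, gave 514.7 and 371.7 CPM of the mast and basophil sum in Control. Mpo gave 3712 and 2718 CPM of the myeloid sum in uninduced cells. In uninduced against Control, 4 of 8 erythroid, 5 of 7 mast and basophil and 6 of 11 myeloid genes tested were higher and 0 lower. Their part in the level of Tal1 was not tested.

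Of the 9 LMO and LDB adaptors and coregulators, which bridge E protein dimers to other factors, 1 rose in uninduced cells and 0 fell, with a median of −0.30. Lmo2, the adaptor that joins Tal1 dimers to GATA factors, was at 52.5 and 58.6 CPM in Control, 285 and 203 in uninduced and 150 and 172 in induced cells. Its order across groups was that of Tal1. The log2 fold change was 2.14 ± 0.219 for uninduced against Control (adjusted p = 0.00133, edgeR). After induction 0 of 9 passed against uninduced by edgeR, 3 did at an unadjusted p under 0.05 and 2 by DESeq2. Lmo2 gave −0.60 ± 0.209 there (adjusted p = 0.199), and Cbfa2t3, a corepressor that binds E proteins, gave 0.52 ± 0.181 (adjusted p = 0.201). Over the 9 genes the median was 0.21, and 1 was lower without uninduced 2. Against Control, Lmo2 alone was called, at 1.54 ± 0.215 (adjusted p = 0.0288), a call lost without Control 1, without Control 2 and with 2 other scalings, and the median was 0.00.

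The 6 genes for E protein turnover, ubiquitin ligase parts and the kinases that mark E2A for degradation, gave 0 calls in each comparison by edgeR, at an unadjusted p under 0.05 and by DESeq2. The ligase Stub1 gave 0.32 ± 0.297 for uninduced against Control (adjusted p = 0.658) and −0.18 ± 0.295 for induced against uninduced (adjusted p = 0.844). The medians were 0.20, −0.18 and 0.09.

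The 12 listed inducers of Id genes were Nfil3 and members of the Egr, TGF-beta and bone morphogenetic protein pathways. Nfil3 is also in the innate lymphoid list. Of the 12, 4 fell in uninduced cells and 0 rose, with a median of −0.66. Egr3, an early growth response factor downstream of antigen receptors, was at 46.8 and 71.8 CPM in Control, 7.65 and 14.7 in uninduced and 35.6 and 25.2 in induced cells, a log2 fold change of −2.39 ± 0.389 (adjusted p = 0.00956, edgeR). Its relative Egr1 was at 495 and 532, 237 and 334, and 487 and 414 CPM, with −0.85 ± 0.201 (adjusted p = 0.0433). Id3, a known target of both, had no call.

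Smad3, which carries TGF-beta signals to the nucleus, was at 97.6 and 86.7 CPM in Control, 51.1 and 43.2 in uninduced and 85.2 and 78.1 in induced cells, with −0.97 ± 0.206 for uninduced against Control (adjusted p = 0.0293, edgeR). Tgfbr1, a subunit of the TGF-beta receptor, was at 89.9 and 99.9, 47.6 and 50.2, and 86.4 and 64.2 CPM, with −0.96 ± 0.221 (adjusted p = 0.0394). Leaving out 1 library at a time gave 1 to 5 lower genes in the list. It was 1 without Control 1, without Control 2 or without induced 1, where Egr3 kept its call and Smad3, Tgfbr1 and Egr1 lost theirs, and 4 without uninduced 2. After induction 0 of 12 passed by edgeR and the median was 0.53. There, 6 were higher at an unadjusted p under 0.05 and 4 by DESeq2, led by Tgfbr2, the other receptor subunit, at 0.78 ± 0.188 (adjusted p = 0.0766) and Smad3 at 0.79 ± 0.205 (adjusted p = 0.0958). Without uninduced 1 or without uninduced 2, 3 and 2 were called higher. Against Control 0 of 12 passed by edgeR or DESeq2, 1 was lower at an unadjusted p under 0.05, and the median was −0.14.

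Of 18 E protein targets of the T lineage, 16 were tested, since Ptcra and Cd3d had too few reads. In uninduced cells 4 fell and 0 rose, with a median of −1.42. Notch1, which E2A activates in progenitors and whose receptor acts through RBPJ, was at 923.6 and 781.5 CPM in Control, 97.7 and 68.8 in uninduced and 519.7 and 483.6 in induced cells. Hes1, a repressor that is a direct target of Notch as well, was at 132.0 and 94.99, 1.39 and 6.80, and 53.1 and 45.6 CPM. Dntt, the polymerase that adds bases at antigen-receptor joints, was at 953 and 696, 1.39 and 30.1, and 250 and 243 CPM. All 3 had the lowest level in uninduced cells and an intermediate level after induction, with no overlap.

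The log2 fold changes for uninduced against Control were −3.36 ± 0.219 for Notch1 (adjusted p = 0.000186), −4.71 ± 0.528 for Hes1 (adjusted p = 0.00196) and −5.65 ± 0.875 for Dntt (adjusted p = 0.00769), all from edgeR. Socs3, an inhibitor of cytokine signals, was at 38.2 and 55.2, 20.2 and 15.4, and 37.7 and 32.9 CPM and fell by 1.39 ± 0.299 (adjusted p = 0.0303). That call was lost without Control 2 and with the 4 compared libraries alone. After induction Notch1 rose from uninduced by 2.59 ± 0.213 (adjusted p = 0.000951), Hes1 by 3.50 ± 0.509 (adjusted p = 0.0124) and Dntt by 3.91 ± 0.813 (adjusted p = 0.0465), so 3 of 16 rose and 0 fell, with a median of 0.76. Against Control 0 of 16 passed after induction by edgeR, 5 were lower at an unadjusted p under 0.05 and 1 by DESeq2, and the median was −0.71. Notch1 gave −0.77 ± 0.200 there (adjusted p = 0.313) and Hes1 −1.20 ± 0.437 (adjusted p = 0.741). The count that fell in uninduced cells was 3 without Control 2, 7 without Control 1 and 6 to 10 when any other library was left out, 10 being without uninduced 2. After induction 5 rose from uninduced when either uninduced library was left out, and 1 fell without uninduced 1. Against Control 4 were lower when either uninduced library was left out.

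The summed level of 11 genes of later thymocytes and mature T cells moved in the same order. It was 400 to 800 CPM in Control, 24.7 to 26.6 in uninduced and 165 to 166 in induced cells, and 4 of 11 were lower in uninduced cells than in Control by edgeR, 11 at an unadjusted p under 0.05 and 10 by DESeq2. Leaving out 1 library gave 3 lower without Control 2 and 8 to 11 otherwise, and the list median moved from −4.24 to −1.51 without Control 2. The median of the T-lineage targets was −0.43 without Control 2 and −3.38 without uninduced 2. This list shares Cd4 and Cd3e with the T-lineage targets. Its part in the level of those targets was not tested.

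**Figure D5:**
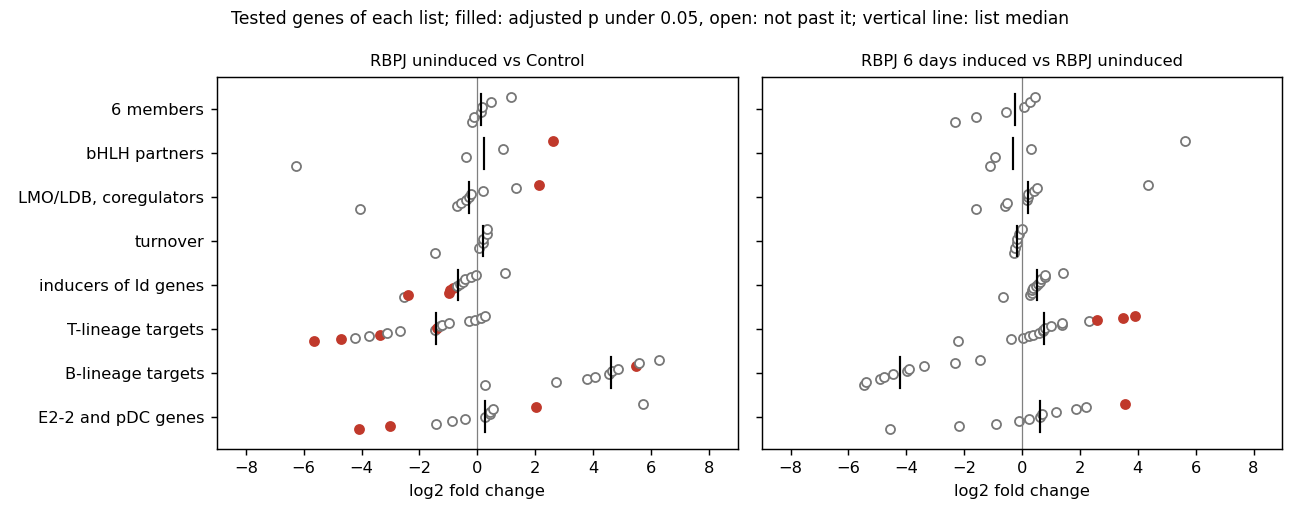
Log2 fold change from the edgeR fit of each tested gene in 7 pathway lists and of the 6 members, for uninduced against Control (left) and induced against uninduced (right), with filled points for an adjusted p under 0.05 and a vertical line at the list median. On the left the T-lineage targets have a median of −1.42 and the B-lineage targets 4.61, and on the right these are 0.76 and −4.23.

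All 10 B-lineage targets of E proteins had a higher mean in uninduced cells than in Control, with a median of 4.61, and 1 passed. Cd79a, a signalling chain of the B cell receptor, was at 0.228 and 1.95 CPM in Control, 6.09 and 75.3 in uninduced and 1.24 and 4.19 in induced cells, with a log2 fold change of 5.49 ± 1.31 (adjusted p = 0.0435, edgeR). The level in uninduced 2 was far above that of its replicate. The call was lost without uninduced 2, without Control 1, without Control 2 and with the 4 compared libraries alone. Without uninduced 1, 8 of 10 were called, and 7 without either of the induced libraries. The median was 1.31 without uninduced 2 and 7.21 without Control 2. In induced against uninduced cells 0 of 10 passed by edgeR, 9 were lower at an unadjusted p under 0.05 and 1 by DESeq2, with a median of −4.23. Without uninduced 1, 10 were called lower, and 4 without induced 2, while without uninduced 2 the count was 0 and the median −0.18. Cd79a gave −3.91 ± 1.14 in this comparison (adjusted p = 0.131) and Ebf1 −4.92 (95% interval −8.29 to −1.54, adjusted p = 0.147). In induced against Control cells 0 of 10 passed by edgeR, by DESeq2 or at an unadjusted p under 0.05, with a median of 0.53 that was 3.02 without Control 2.

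The list of E2-2 targets and plasmacytoid dendritic cell markers did not move one way. Of 11 tested, 1 rose and 2 fell in uninduced cells, with a median of 0.25. Irf8, a factor of dendritic and monocyte progenitors, was at 15.4 and 11.3 CPM in Control, 38.8 and 71.1 in uninduced and 48.0 and 55.3 in induced cells. Its log2 fold change for uninduced against Control was 2.03 ± 0.339 (adjusted p = 0.0106, edgeR). That call was lost without Control 2 and with the 4 compared libraries alone. Tlr7, the receptor for single-stranded RNA, was at 23.5 and 11.9, 1.22 and 3.01, and 21.0 and 30.2 CPM. It fell by 3.02 ± 0.544 in uninduced cells (adjusted p = 0.0147), a call lost without Control 1, and rose after induction by 3.54 ± 0.550 (adjusted p = 0.0159). Both calls were lost with the 4 compared libraries alone.

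Ccr9, a receptor that draws progenitors to the thymus, was at 18.2 and 44.2, 1.56 and 2.01, and 9.54 and 7.27 CPM, with −4.09 ± 0.549 for uninduced against Control (adjusted p = 0.00422). Tlr7 was the gene of this list called in induced against uninduced, where the median was 0.61. There, 4 were higher and 2 lower without uninduced 1, 3 higher without uninduced 2 and 2 higher without Control 1. In uninduced against Control, leaving out 1 library gave 0 to 3 higher and 1 to 3 lower, 0 higher being without Control 2 and 1 lower without Control 1. For induced against Control 0 of 11 passed by edgeR, 2 were higher and 1 lower at an unadjusted p under 0.05 and by DESeq2, and the median was 0.23. Irf8 gave 1.94 ± 0.337 there (adjusted p = 0.0653). Siglech, the surface lectin specific to plasmacytoid dendritic cells, was at 0 to 1.95 CPM in all libraries, so the defining marker was near 0 while Tcf4 itself was between 105.7 and 162.9 CPM throughout. The summed level of the list was 544 to 694 CPM in Control, 399 to 576 in uninduced and 714 to 791 in induced cells. Bcl11a alone gave 441 and 317 CPM of it in Control, 262 and 297 in uninduced and 482 and 409 in induced cells.

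Of 12 genes of the Id2-dependent innate lymphoid and natural killer lineages, 2 rose and 3 fell in uninduced cells, with a median of 0.83. Tox and Gata3, factors shared by early T cells and innate lymphoid progenitors, were lower by 4.37 ± 0.303 (adjusted p = 0.000273, edgeR) and 3.09 ± 0.457 (adjusted p = 0.00617). Il18r1, the receptor for interleukin 18, was lower by 2.04 ± 0.433 (adjusted p = 0.0293). Il1rl1, the interleukin 33 receptor, which mast cells also carry, was higher by 5.55 ± 0.482 (adjusted p = 0.000568). The fifth, Zbtb16, was higher by 2.29 ± 0.540 (adjusted p = 0.0424). The call of Il18r1 was lost without Control 1 and that of Zbtb16 without Control 2. With the 4 compared libraries alone both of these calls and that of Gata3 were lost. Leaving out 1 library gave 1 to 5 higher and 2 to 4 lower, 1 higher being without Control 2, 5 higher without uninduced 1, and 2 lower without Control 1. The median turned to −4.08 without uninduced 2, on fitted values that include genes at 0 reads in uninduced 1.

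After induction Tox, Gata3 and Il18r1 rose from uninduced by 3.66 ± 0.296, 3.02 ± 0.455 and 3.02 ± 0.443 (adjusted p = 0.000951, 0.0145 and 0.0129, edgeR), and 0 of 12 fell, with a median of 0.26. Without uninduced 2, 5 rose and the median was 3.84. Tox was at 163.4 and 128.4 CPM in Control, 9.04 and 5.35 in uninduced and 82.8 and 95.8 in induced cells. Il1rl1 was called higher in induced cells than in Control, by 4.47 ± 0.469 (adjusted p = 0.00741), at 44.3 and 25.5 against 0.990 and 2.48 CPM, and the list median was 1.17. In this comparison 4 were higher without uninduced 1, 3 without uninduced 2 and 2 without Control 1. Id2 itself, required for these lineages, was between 14.3 and 30.9 CPM throughout. Natural killer genes differed between the uninduced libraries. Eomes, Tbx21, Ncr1 and Klrb1c were at 0 in uninduced 1 and at 8.36, 3.45, 7.91 and 2.67 CPM in uninduced 2, the highest library for all of these but Ncr1. Ncr1, an activating receptor of natural killer cells, was at 0.609 and 1.59 CPM in Control and 11.0 and 15.8 in induced cells. The summed level of the list was 221 to 267 CPM in Control, 137 to 186 in uninduced and 281 to 304 in induced cells.

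The genes whose profile over the 6 libraries was most like that of a member were found by the smallest root mean square difference of centred log2 CPM, as a description over 6 libraries that share their depth and scaling. Tcf4 and Tcf12 ranged by 0.62 and 0.50 log2 units and were too flat for this. The nearest to Tcf3 were Colgalt1, at 0.05 log2 units, Ecd at 0.06 and Ppm1m at 0.07. Colgalt1 was at 52.2 and 43.7 CPM in Control, 45.4 and 95.6 in uninduced and 47.7 and 46.0 in induced cells, so it too was high in uninduced 2 alone. Without that library Tcf3 ranged from 125.5 to 154.3 CPM and was too flat to compare. Nearest to Id2 were Tmem230, Pja1 and Mfsd5, at 0.16, 0.17 and 0.19 log2 units.

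Nearest to Id1 was Etv5, an Ets-family transcription factor, at 0.29 log2 units, followed by Hspb6 at 0.39. Etv5 was at 11.5 and 11.7 CPM in Control, 26.9 and 23.7 in uninduced and 9.45 and 3.07 in induced cells. Like Id1 it was highest in both uninduced libraries and lowest in induced 2. No gene came close to Id3, for which the smallest differences were 1.39 for Epha2, 1.45 for Slc15a3 and 1.46 for Arl5c.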

How the data were processed

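RNA of 6 libraries, 2 per group, was sequenced on a NextSeq, per the labels' protocols. The authors deposited raw read counts per Ensembl gene. Per the submitters' processing notes, HISAT2, StringTie and HTSeq were used with mm10. Their versions, whether counting used strand, and the gene annotation were not given in the sources used here. Of 47729 gene IDs, 47224 matched GENCODE M21. Counts were taken from 12932928, 5311391, 5098927, 10918205, 11090902 and 11240828 reads assigned to genes (Control 1 and 2, uninduced 1 and 2, induced 1 and 2).

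Genes passing filterByExpr (minimum count 10, total 15) were scaled by TMM and tested in edgeR 4.0.16 (R 4.3.3) with 1 quasi-likelihood model over all 6 libraries, with 3 residual degrees of freedom, two-sided, and Benjamini-Hochberg adjustment over 18174 genes at 0.05. CPM are counts divided by the TMM-scaled library size. SE is the log2 fold change over the square root of F. The script was tested on simulated data.

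The 6 members and all lists were chosen with earlier results of these data known, and the lists rest on textbook roles. All members are named. From each list up to 4 genes past the threshold with the smallest p are named per comparison, or up to 2 where none passed, some of which are not reported here, and genes singled out beyond that rule (Lyl1, Zbtb16, Ebf1, Pax5, Siglech, Bcl11b, Cd8a, Rag1 and the natural killer genes) were named after their values were seen. Likeness was taken over tested protein-coding genes with average log2 CPM of at least 2. Replicates of each group differed beyond counting noise (chi-square per degree of freedom 17.41 to 56.66). Alternatives were RLE and upper-quartile scaling, no filter, a filter of 1 CPM in 2 libraries, DESeq2 1.42.0, the 4 compared libraries alone, a replicate block, each library left out in turn, and other length scales for the E to Id ratio.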

Additional observations from a re-analysis of the deposited data

How the results depend on the processing

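Of 234 alternative values of the 6 genes over 3 comparisons, 213 kept their direction and side of the threshold, 18 reversed and 3 passed in the same direction, and 0 lost a call, since there was none to lose. In all 4 passed, since Id3 without uninduced 2 passed against Control with a reversed sign. Tcf4 kept its direction in every alternative run. Leaving out 1 library at a time gave, for uninduced against Control, −0.22 to 0.87 for Tcf3, −0.39 to 0.038 for Tcf12, −0.0389 to 0.31 for Id2 and −9.16 to 1.61 for Id3, on fitted values that for Id3 depend on the prior count where all reads are 0. For induced against uninduced the ranges were −0.96 to 0.12 for Tcf3, −0.10 to 0.33 for Tcf12, −0.33 to 0.77 for Id2 and −5.39 to 6.98 for Id3. For induced against Control they were −0.23 to 0.0672 for Tcf3, −0.21 to 0.0795 for Tcf12, −2.27 to 0.32 for Id1 and −0.17 to 0.84 for Id2. Id3 in induced against Control ran from −5.24 without induced 1 to −0.60 without Control 2, and Id1 in induced against uninduced from −3.42 without induced 1 to −0.76 without induced 2, with no change of sign. Id1 in uninduced against Control ran from 0.72 without uninduced 1 to 1.45 without uninduced 2. Id3 in uninduced against Control also reversed with upper-quartile scaling (−0.0873), DESeq2 (−0.04) and the replicate block (−0.34), and the cause was not tested. Upper-quartile scaling moved the median of all genes there from −0.02 to −0.12.

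Counts of genes called higher and lower were 452 and 533 for uninduced against Control, 282 and 75 for induced against uninduced and 34 and 0 for induced against Control. In the same order they were 725 and 815, 675 and 314, and 247 and 57 with no filter on low counts, 814 and 1045, 746 and 492, and 179 and 49 with DESeq2, and 93 and 126, 70 and 1, and 142 and 35 with the 4 compared libraries alone. Leaving out 1 library gave 185 to 1007 higher and 260 to 1165 lower, 156 to 951 and 15 to 549, and 20 to 266 and 0 to 71. Upper-quartile scaling gave 113 lower for induced against uninduced. With the 4 compared libraries alone, many of the named list genes lost their call. In uninduced against Control these were Egr3, Smad3, Tgfbr1, Egr1, Dntt, Socs3, Cd79a, Irf8, Tlr7, Gata3, Il18r1 and Zbtb16. In induced against uninduced they were Hes1, Dntt, Tlr7, Gata3 and Il18r1. The replicate block gave 133 lower for induced against uninduced and 101 higher and 7 lower for induced against Control, and called 0 of the 6 genes. Same-numbered libraries deviated together at correlations of −0.04 to 0.03. Differences particular to a library can hide a shared batch, so these values do not decide whether same-numbered libraries were handled together.

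The log2 E to Id ratio was 4.02 in Control, 3.85 in uninduced and 4.17 in induced cells with no length correction, which weights the longer E protein genes more, and 2.39 in uninduced cells by the longest transcript. Read numbers were lowest for Id1, with 4 to 30 per library, and Id3, with 0 to 149.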
